A study of Mus musculus with 12 samples.

Results

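The 10 genes described here carry the interferon signal from its ligand to its brake: Ifnb1, the 4 interferon receptor chains Ifnar1, Ifnar2, Ifngr1 and Ifngr2, the Janus kinases Jak1, Jak2 and Tyk2, and the feedback inhibitors Socs1 and Socs3. They were taken by mouse symbol and found by Entrez identifier, and all 10 of 10 were among the 17571 genes with a value. FPKM, the unit of the values, counts fragments relative to transcript length and library total, so levels can be set side by side between genes. To be tested, a gene had to reach 1 FPKM in 3 libraries or more. Of the 10 genes 9 passed this filter, as did 10412 genes in all, and Ifnb1 did not.

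RNA was sequenced from L929 cells, an established line of mouse fibroblasts from strain C3H/An, in 12 libraries that fall into 4 groups of 3. Mock cells were given DMSO, the vehicle. The pEGFP-N1 cells were given DMSO and a plasmid that expresses EGFP, the BX795 cells 0.5 μM of BX795, an inhibitor of the kinase TBK1, without plasmid, and the BX795 plus pEGFP-N1 cells both. Inhibitor or vehicle was added 1 h before transfection and cells were collected after 6 h of it. Whether mock and BX795 cells were exposed to the transfection reagent is not stated in the sources used here, and all libraries come from 1 cell line; the labels do not say whether the 3 libraries of a group are separate cultures, so p-values measure only the spread between these libraries. RNA of a whole culture cannot tell a change in some cells from a smaller change in all.

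By way of background, type I interferons such as interferon β bind a receptor made of IFNAR1 and IFNAR2, whose cytoplasmic tails hold TYK2 and JAK1, and interferon γ binds IFNGR1 and IFNGR2, which hold JAK1 and JAK2. The kinases phosphorylate STAT proteins. STAT proteins together with IRF9 bind a DNA element called ISRE, while STAT dimers bind one called GAS. Among the genes switched on are those for the SOCS proteins, which bind receptors or JAKs and stop the signal, so that SOCS RNA is often read as a trace of recent cytokine signaling. Fibroblasts both make interferon β when DNA reaches the cytosol and answer it, and TBK1 sits between the DNA sensor and the interferon gene.

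The sequence before the start of transcription was read for each of the 10 genes, 250 bases from the RefSeq windows of GRCm38.p6. Shown are those of both SOCS genes, where the levels differed most between libraries, of Ifnb1, the ligand, and of Ifnar2 and Ifngr2, receptor chains from one cluster on chromosome 16. Capitals mark matches on either strand to an ISRE (GAAA, 2 bases of any kind, GAAA), a GAS (TTCNNNGAA, with N for any base), a kappaB site (GGG, 3 bases of any kind, TTCC) or a TATA box (TATAAA).
Socs1, chr16:10785537-10785786, minus strand: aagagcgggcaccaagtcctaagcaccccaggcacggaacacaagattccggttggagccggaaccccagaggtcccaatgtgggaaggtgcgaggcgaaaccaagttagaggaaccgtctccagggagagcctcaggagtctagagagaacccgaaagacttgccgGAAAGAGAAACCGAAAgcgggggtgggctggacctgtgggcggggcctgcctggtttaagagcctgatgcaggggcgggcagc
Socs3, chr11:117969367-117969616, minus strand: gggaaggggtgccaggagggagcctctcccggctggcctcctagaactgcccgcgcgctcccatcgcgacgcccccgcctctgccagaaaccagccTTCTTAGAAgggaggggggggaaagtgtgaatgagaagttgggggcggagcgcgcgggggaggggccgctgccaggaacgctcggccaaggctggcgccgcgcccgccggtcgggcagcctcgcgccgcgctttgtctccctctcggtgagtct
Ifnb1, chr4:88522795-88523044, minus strand: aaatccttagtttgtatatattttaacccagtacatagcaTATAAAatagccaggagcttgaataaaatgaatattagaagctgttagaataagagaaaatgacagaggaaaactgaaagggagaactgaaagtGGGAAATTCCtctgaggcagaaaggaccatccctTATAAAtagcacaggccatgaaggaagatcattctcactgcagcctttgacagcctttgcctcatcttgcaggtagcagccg
Ifnar2, chr16:91372533-91372782, plus strand: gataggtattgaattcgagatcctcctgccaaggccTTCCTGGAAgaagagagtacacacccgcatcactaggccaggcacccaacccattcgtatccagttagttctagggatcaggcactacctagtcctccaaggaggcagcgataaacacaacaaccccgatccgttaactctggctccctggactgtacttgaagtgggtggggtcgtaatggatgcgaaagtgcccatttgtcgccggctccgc
Ifngr2, chr16:91546809-91547058, plus strand: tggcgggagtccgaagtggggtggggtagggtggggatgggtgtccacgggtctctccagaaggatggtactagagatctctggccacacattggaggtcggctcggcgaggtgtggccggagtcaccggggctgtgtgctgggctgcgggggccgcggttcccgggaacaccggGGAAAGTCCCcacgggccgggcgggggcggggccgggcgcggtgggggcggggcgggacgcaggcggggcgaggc

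With the start counted as position 0, Socs1 held a pair of overlapping ISRE matches, GAAAGAGAAA from -83 to -74 and GAAACCGAAA from -77 to -68, and was the only 1 of the 10 genes with that motif. Of all 32851 windows of this length, 2.98% held an ISRE match. GAS matches were found before Socs3 (TTCTTAGAA, -154 to -146) and Ifnar2 (TTCCTGGAA, -214 to -206), so in 2 of the 10 genes against 7.02% of windows. The Socs3 window lies before the RefSeq start but inside the gene as GENCODE annotates it, within a longer non-coding transcript. A kappaB match stood before Ifnb1 (GGGAAATTCC, -116 to -107) and, on the minus strand, before Ifngr2 (GGAAAGTCCC, -75 to -66), against 4.65% of windows. Ifnb1 was the single gene of the 10 with TATAAA, found at 2 places, from -210 and from -82, against 12.4% of windows. The windows before Ifnar1, Ifngr1, Jak1, Jak2 and Tyk2 held none of the 4 motifs. A match is a description of letters and not of binding.

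Before the levels are given, 2 libraries need to be set apart. The summed FPKM of 8 genes that interferon and DNA sensing induce (Isg15, Ifit1, Ifit3, Rsad2, Oasl1, Cxcl10, Irf7 and Usp18) lay between 5.07 and 6.2 in the 3 mock libraries. It was 651 and 609 in the libraries labelled pEGFP-N1 replicates 1 and 3 but 5.31 in the library labelled pEGFP-N1 replicate 2. It was 11.8 and 18.2 in those labelled BX795 plus pEGFP-N1 replicates 2 and 3 but 641 in the one labelled replicate 1, and between 4.77 and 16.6 with BX795 alone. A second reading used 277 genes, none of them in any list of this report, whose mock and BX795 libraries did not overlap and differed by at least 0.5 on the log2(FPKM + 1) scale. Of these, 97.1% lay nearer the BX795 mean than the mock mean in pEGFP-N1 replicate 2, against 11.6% and 14.1% in the other pEGFP-N1 libraries. In BX795 plus pEGFP-N1 replicate 1 the share was 12.3%, against 90.6% and 77.3% in its partners. Both libraries thus stood against their labels on both readings, and the cause was not tested. All libraries are named here by their labels, and the comparisons of the 10 genes are given with and without these 2. The 2 were set apart by interferon markers and by genes that separate BX795 from mock, that is, by outcomes of both treatments. Any plasmid or inhibitor effect that uses their groups without them, calls and p-values included, is therefore a description of the remaining libraries and not an independent test.

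**Figure D1:**
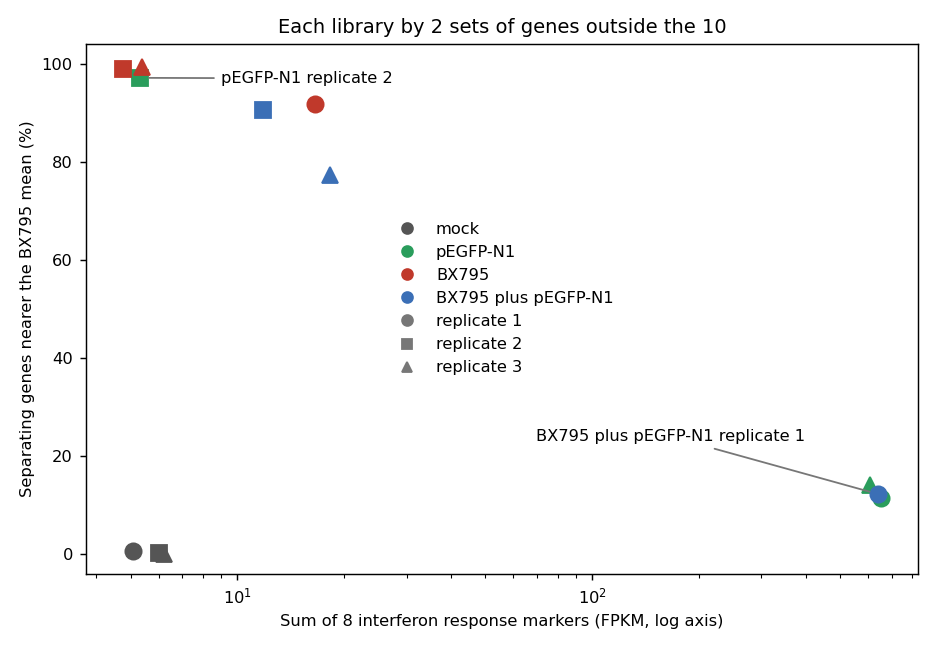
Position of the 12 libraries by 2 sets of genes other than the 10. The horizontal axis is the summed FPKM of the 8 interferon response markers on a log scale, the vertical axis the percent of the 277 genes separating BX795 from mock that lie nearer the BX795 mean. Color gives the label and shape the replicate. The library labelled pEGFP-N1 replicate 2 sits with the BX795 libraries at the upper left, and the library labelled BX795 plus pEGFP-N1 replicate 1 sits with the 2 other pEGFP-N1 libraries at the lower right.

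FPKM keeps no read totals, so depth is unknown and no counting interval can be given. Library sums ran from 467348 FPKM (BX795 plus pEGFP-N1 replicate 3) to 513761 FPKM, and 0 of 66 pairs of libraries held identical values. Of 10 fibroblast markers, 9 reached 1 FPKM in some library, led by S100a4, and 1, Thy1, stayed at or below 0.13. Of 6 macrophage markers, 5 stayed under 1 FPKM in every library, Ptprc, Adgre1 and Csf1r among them, while Cd68 lay between 111 and 138. All 6 lymphocyte, 5 epithelial and 5 endothelial markers stayed under 1 FPKM throughout.

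In mock cells the 9 genes above the filter spanned 5.39 to 47.0 FPKM. Jak1, the kinase shared by both receptors, had the highest level, 47.0 ± 1.6 (SD, n = 3), above 89.3% of all genes in the table. Next came Ifnar2 with 25.9 ± 1.15, Ifngr2 with 23.0 ± 0.244 and Socs3 with 18.2 ± 0.231 FPKM, and the ranges of these 4 genes did not overlap. Ifnar1 (10.3 ± 0.396) and Jak2 (9.64 ± 0.778) overlapped each other. So did Ifngr1 (7.58 ± 0.313) and Socs1 (7.31 ± 0.305), and Tyk2 was lowest of the 9 with 5.39 ± 0.352. Within each receptor 1 chain exceeded its partner: the ratio of the Ifnar2 to the Ifnar1 level was 2.51 to 2.54 in mock, 2.59 to 2.92 with pEGFP-N1, 2.49 to 3.09 with BX795 and 2.43 to 3.14 with both treatments. The ratio of the Ifngr2 to the Ifngr1 level was 2.92 to 3.12 in mock, 2.37 to 3.62 with pEGFP-N1, 3.07 to 4.0 with BX795 and 2.87 to 3.78 with both. Among the kinases, the ratio of the Jak1 to the Tyk2 level was 7.85 to 9.45 in mock, 5.64 to 9.65 with pEGFP-N1, 5.96 to 7.22 with BX795 and 7.56 to 8.76 with both. Only the Jak1 to Tyk2 ratio with BX795 and the Ifnar2 to Ifnar1 ratio with pEGFP-N1 lay wholly outside the mock range.

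**Figure D2:**
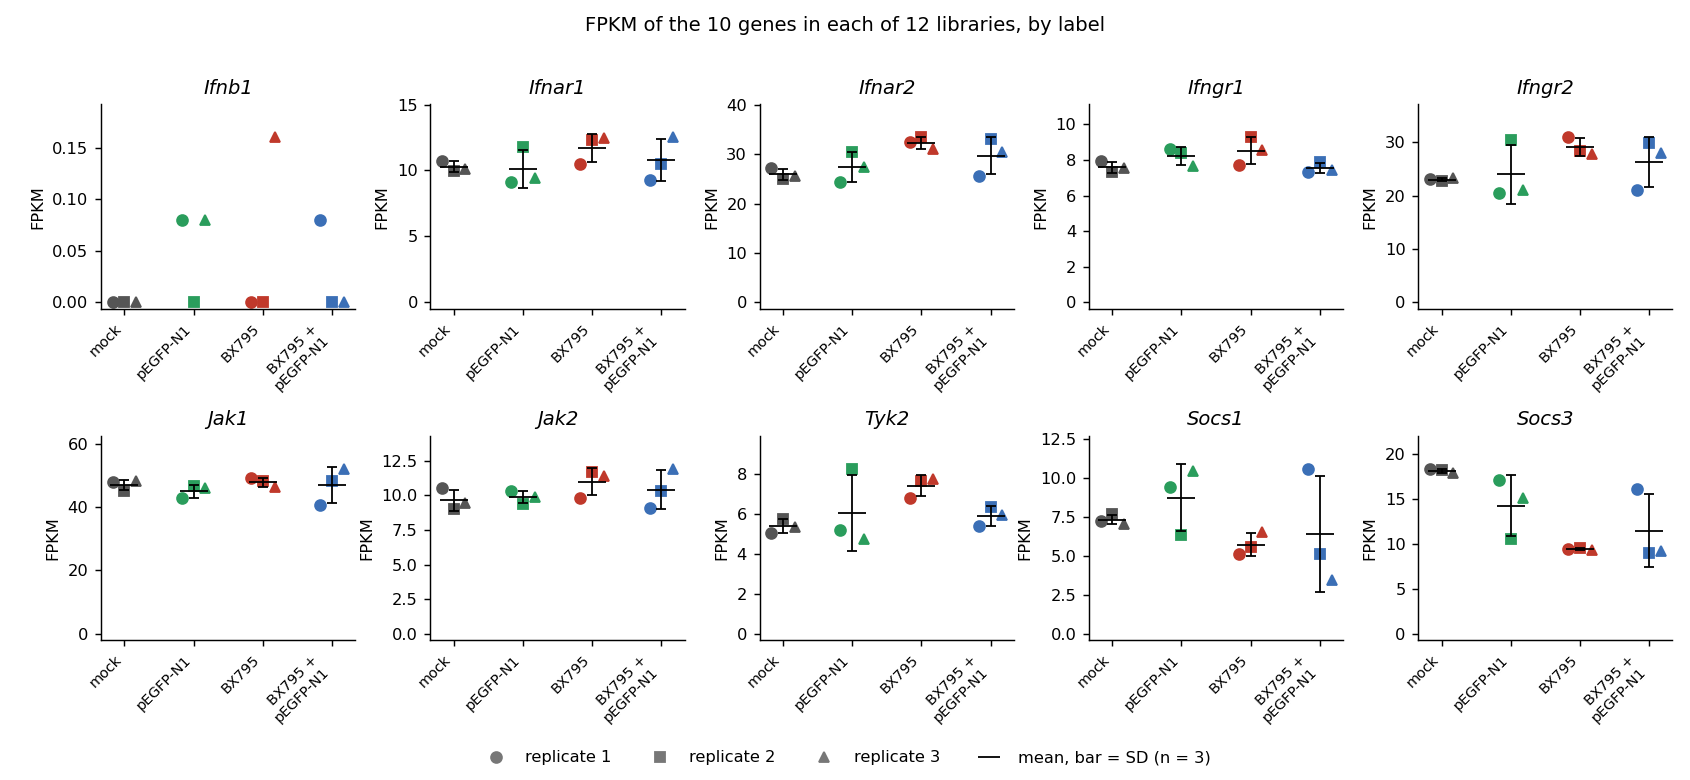
FPKM of each of the 10 genes (vertical axes, from 0, separate scale per gene) in the 3 libraries of each labelled group (horizontal axes). Points are libraries, with shape for the replicate number, and black bars are the mean and SD of 3, not drawn for Ifnb1, which is listed at 0 in 8 libraries. Socs3 is near 18 FPKM in mock and near 9.5 with BX795, while the squares of pEGFP-N1 and the circles of BX795 plus pEGFP-N1 lie away from their partners for Socs1, Socs3 and Ifngr2.

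Ifnb1 (chromosome 4 of GRCm38, 88522025 to 88522774), the gene of the ligand, was listed at 0 in 8 of the 12 libraries, including the 3 mock libraries. The libraries above 0 were pEGFP-N1 replicates 1 and 3 and BX795 plus pEGFP-N1 replicate 1, each with 0.08 FPKM, and BX795 replicate 3 with 0.16. Those with 0.08 FPKM are the 3 libraries with marker sums above 600. None of the 4 pairs of groups compared passed a two-sided exact permutation test of 3 libraries against 3, in which the smallest possible p is 0.1 (p = 0.4 for pEGFP-N1 against mock and p = 1.0 for each of the other 3 comparisons). Values this low did not allow a difference to be detected. Of 20 other interferon genes, 7 had a value, and of these only Ifnz passed the filter, with 0.20 to 1.39 FPKM over the 12 libraries. The other 6 (Ifna4, Ifna5, Ifna7, Ifna13, Ifnab and Ifne) reached 0.31 FPKM at most.

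The effect of the inhibitor without plasmid was read from BX795 against mock, a comparison in which neither of the 2 doubted libraries stands. Socs3, which restrains signaling through gp130 and other cytokine receptors, had 18.4, 18.3 and 18.0 FPKM in the mock libraries and 9.48, 9.56 and 9.30 FPKM in the BX795 libraries. Socs1, which binds JAKs directly, had 7.22, 7.65 and 7.06 FPKM in the mock libraries and 5.10, 5.54 and 6.50 FPKM in the BX795 libraries. For both, every BX795 library was below every mock library. On the receptor side, Ifnar2, the chain that binds type I interferon most tightly, had 27.2, 25.0 and 25.5 FPKM without and 32.4, 33.4 and 31.0 FPKM with BX795. Ifngr2, the signaling chain of the interferon γ receptor, had 23.1, 22.8 and 23.2 FPKM without and 30.9, 28.4 and 27.8 FPKM with BX795. Tyk2, the kinase on IFNAR1, had 5.06, 5.76 and 5.34 FPKM without and 6.80, 7.64 and 7.76 FPKM with it. These 3 genes were higher in every BX795 library than in any mock library, by smaller steps than that of Socs3.

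Levels of the other 4 genes overlapped between mock and BX795. Ifnar1, the partner chain of Ifnar2, had 10.7, 9.96 and 10.2 FPKM in the mock libraries and 10.5, 12.3 and 12.4 FPKM in the BX795 libraries. Ifngr1, the ligand-binding chain for interferon γ, had 7.92, 7.30 and 7.53 against 7.73, 9.27 and 8.56 FPKM. For Jak2, the kinase on IFNGR2, the values were 10.5, 8.98 and 9.45 against 9.84, 11.7 and 11.4 FPKM. In these 3 genes BX795 replicate 1 lay within the mock range and the other BX795 libraries above it. Jak1 had 47.8, 45.2 and 48.1 FPKM without and 49.1, 48.1 and 46.3 FPKM with BX795, with no order between the groups. In all, 5 of the 9 genes did not overlap between mock and BX795, and 39.8% of the 10412 genes tested did not either.

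With one spread estimated over all 12 libraries, 0 of the 9 genes passed an adjusted p of 0.05 for BX795 against mock (limma on log2(FPKM + 1), Benjamini-Hochberg over 10412 genes, of which 0.0672% passed). Without adjustment, 13.8% of tested genes, 1442 in number, had a limma p under 0.05, and Socs3, Ifnar2, Ifngr2 and Tyk2 were among them. The log2 change of Socs3 was -0.88 (SE 0.195, limma adjusted p = 0.137). That of Tyk2 was 0.39 (SE 0.149, limma adjusted p = 0.301), of Ifngr2 0.32 (SE 0.146, limma adjusted p = 0.360) and of Ifnar2 0.31 (SE 0.0975, limma adjusted p = 0.259). Changes are on the log2(FPKM + 1) scale, which understates those of low genes.

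The spread in that fit includes the 2 libraries that stood against their labels. In a fit of the 6 mock and BX795 libraries alone, a choice made after the data were seen, Socs3 fell by 0.88 (SE 0.0465, limma adjusted p = 4.57e-05) and Socs1 fell by 0.31 (SE 0.0813, limma adjusted p = 0.0280). Tyk2 rose by 0.39 (SE 0.0707, limma adjusted p = 0.00635), Ifngr2 by 0.32 (SE 0.0505, limma adjusted p = 0.00352) and Ifnar2 by 0.31 (SE 0.0503, limma adjusted p = 0.00440). So 5 of 9 genes were called, where 20.6% of all tested genes were. The median log2 change of the 9 was 0.168 and that of all tested genes 0.0284. Ifnar1 (0.17, limma adjusted p = 0.107), Ifngr1 (0.15, limma adjusted p = 0.164), Jak2 (0.17, limma adjusted p = 0.152) and Jak1 (0.02, limma adjusted p = 0.728) were not called. For Jak1 the 95% interval of the log2 change ran from -0.08 to 0.12 in these 6 libraries. Without the 2 doubted libraries but with the remaining 10 in the fit, Socs3, Ifngr2, Ifnar2 and Tyk2 were called, as were 14.1% of tested genes, and Socs1 was not (limma adjusted p = 0.0971).

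**Figure D3:**
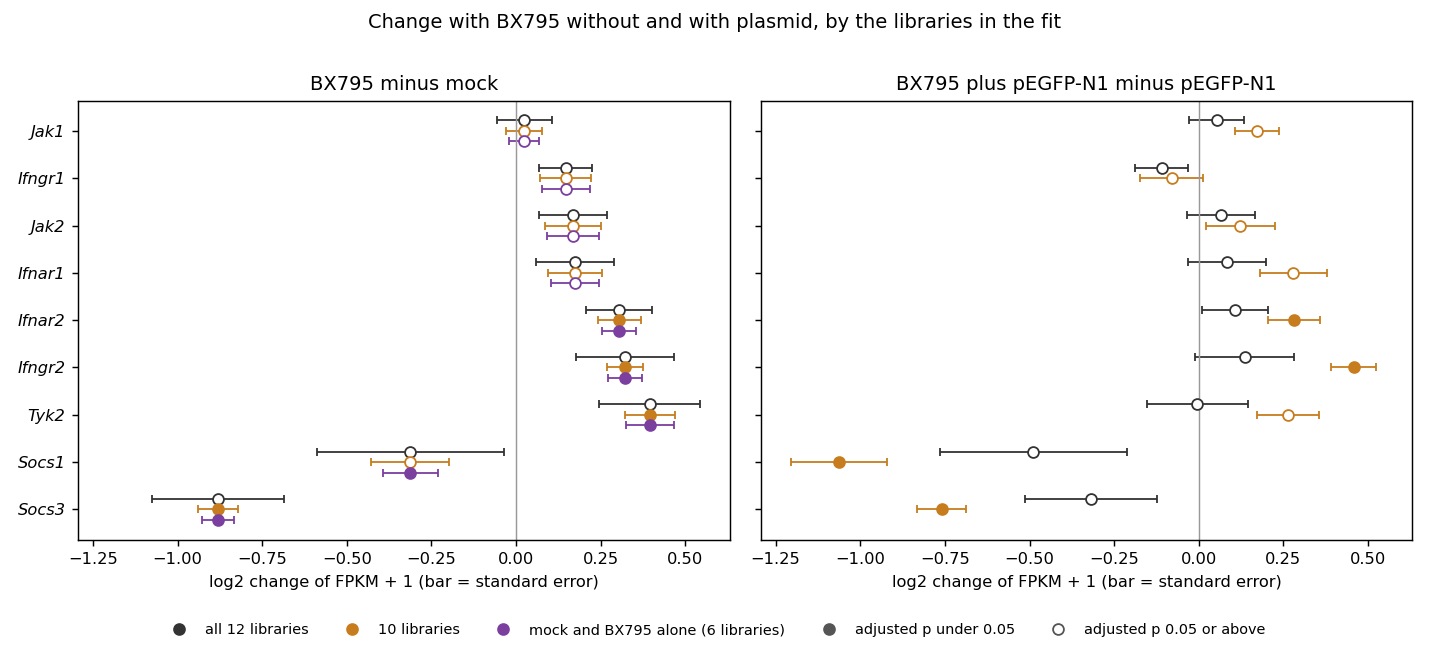
Change with BX795 for the 9 genes above the filter, without plasmid at left and with plasmid at right. The horizontal axis is the log2 change of FPKM + 1 and bars are standard errors. Color gives the libraries in the fit and filled points have a limma adjusted p under 0.05. At left the changes are the same in all 3 fits and the bars shrink, with Socs3 at -0.88. At right Socs1 moves from -0.49 to -1.06 once the 2 doubted libraries are left out.

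The effect of the plasmid without inhibitor was read from pEGFP-N1 against mock, where the library labelled replicate 2 stood apart in most of the 10 genes. Socs1 had 9.43 and 10.4 FPKM in pEGFP-N1 replicates 1 and 3, above the mock range, and 6.32 FPKM in replicate 2, below it. Socs3 had 17.2 and 15.1 FPKM in replicates 1 and 3 and 10.6 FPKM in replicate 2, and all 3 were below mock. Ifngr2 had 20.5 and 21.1 FPKM in replicates 1 and 3, below the mock range, and 30.3 FPKM in replicate 2, within the BX795 range. Tyk2, with 5.17, 8.25 and 4.75 FPKM, was likewise highest in replicate 2. The values of Ifnar2 were 24.4, 30.4 and 27.5 FPKM and those of Ifnar1 9.13, 11.8 and 9.42 FPKM, with replicate 2 the highest of each 3. Ifngr1 (8.64, 8.38 and 7.68 FPKM), Jak1 (42.7, 46.5 and 45.9 FPKM) and Jak2 (10.3, 9.41 and 9.90 FPKM) did not set replicate 2 apart.

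By label, 0 of the 9 genes were called for pEGFP-N1 against mock, where 0.0672% of tested genes were, and the largest log2 changes were -0.35 for Socs3 (SE 0.195) and 0.20 for Socs1 (SE 0.276), both with a limma adjusted p = 0.9997. Their 95% intervals, -0.78 to 0.07 and -0.40 to 0.81, were wide. Only Socs3 did not overlap between the groups, as was the case for 12.9% of tested genes. Without the 2 doubted libraries, again none of the 9 was called, against 3.76% of tested genes. There the change was 0.39 for Socs1 (SE 0.129, limma adjusted p = 0.130) and -0.17 for Socs3 (SE 0.0654, limma adjusted p = 0.197), so both values moved by over 1.5 times. Groups of 4 of the 9 genes then did not overlap (Socs1 above mock, Ifnar1, Ifngr2 and Socs3 below it), against 51.6% of tested genes, a share that comes with only 2 pEGFP-N1 libraries. Ifnar2, Ifngr2 and Tyk2 turned from 0.07, 0.03 and 0.11 to -0.00, -0.14 and -0.10.

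In the presence of BX795, the same plasmid gave Socs1 levels of 10.6 FPKM in BX795 plus pEGFP-N1 replicate 1 and of 5.13 and 3.44 FPKM in replicates 2 and 3. Socs3 had 16.1 FPKM in replicate 1 and 9.0 and 9.24 FPKM in the others. For both SOCS genes replicate 1 was thus in or near the range of pEGFP-N1 replicates 1 and 3, and the others were within or below the range of BX795 alone. Ifngr2 mirrored this, with 21.0 FPKM in replicate 1 and 29.8 and 28.1 FPKM in replicates 2 and 3, as did Ifnar2 with 25.6, 33.0 and 30.4 FPKM. Tyk2 (5.37, 6.36 and 5.94 FPKM) lay below BX795 alone in all 3 libraries. Ifnar1 (9.30, 10.5 and 12.51 FPKM), Ifngr1 (7.33, 7.88 and 7.44 FPKM), Jak1 (40.8, 48.1 and 52.0 FPKM) and Jak2 (9.07, 10.3 and 11.9 FPKM) overlapped BX795 alone, with replicate 1 the lowest of each 3.

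Against BX795 alone, 0 of the 9 genes were called, as were 0 of all tested genes (579 had an unadjusted limma p under 0.05), and Tyk2, with a log2 change of -0.29 (SE 0.149, limma adjusted p = 0.604), was the only one whose groups did not overlap, against 10.7% of tested genes. Without the 2 doubted libraries none was called either, nor any other gene (1537 with an unadjusted limma p under 0.05), and Tyk2 and Socs3 did not overlap, against 17.7% of tested genes. Against pEGFP-N1 alone, 0 of the 9 and 0 of all tested genes were called by label (166 with an unadjusted limma p under 0.05), and none of the 9 was without overlap, against 2.8% of tested genes. The log2 changes of Socs1 and Socs3 were -0.49 (SE 0.276) and -0.32 (SE 0.195), each with a limma adjusted p = 0.959. Without the 2 doubted libraries, the log2 change was -1.06 for Socs1 (SE 0.142) and -0.76 for Socs3 (SE 0.0716), 0.46 for Ifngr2 (SE 0.0665) and 0.28 for Ifnar2 (SE 0.0765). These 4 of 9 genes, and 18.1% of all tested genes, then had a limma adjusted p under 0.05, which is no independent test, since the 2 libraries were left out for how they stood on these treatments. Tyk2 was at 0.26, Ifnar1 at 0.28 and Jak1 at 0.17. All but Ifngr1 of the 9 genes then did not overlap, as did 57.4% of tested genes, with 2 libraries left in each group.

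Whether the plasmid acted differently with inhibitor was tested as the difference of the 2 plasmid effects. By label, none of the 9 genes was called, nor any other gene (407 with an unadjusted limma p under 0.05), with -0.18 for Socs1 (SE 0.391, limma adjusted p = 0.913) and 0.56 for Socs3 (SE 0.276, limma adjusted p = 0.842). Without the 2 doubted libraries, none of the 9 was called, against 1.27% of tested genes. The Socs1 difference was then -0.75 (SE 0.183, limma adjusted p = 0.115), from 0.39 without to -0.36 with inhibitor, and that of Socs3 0.12 (SE 0.0924, limma adjusted p = 0.662). Averaged over both plasmid states, BX795 gave 0 calls among the 9 by label, where 0.0% of tested genes were called (1179 with an unadjusted limma p under 0.05), and 6 of 9 without the 2 libraries, where 33.8% were, again with the libraries chosen by outcomes of the treatments. The plasmid, averaged over both inhibitor states, gave 0 of 9 by label, with no other gene called (637 with an unadjusted limma p under 0.05), and 0 of 9 without the 2 libraries, where 4.34% of tested genes were called.

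Ifnar2, Ifnar1 and Ifngr2 lie on 1 stretch of chromosome 16, from 91372783 to 91565623 of GRCm38, all on the plus strand, and GENCODE tags Ifnar2 as overlapping another locus. Between Ifnar2 and Ifnar1 lies Il10rb, the shared receptor chain for interleukin 10 and interferon λ and the only other gene of the stretch with a value; it was chosen for its position after its values were seen. Il10rb had 9.64, 10.5 and 9.84 FPKM without and 13.7, 16.9 and 16.1 FPKM with BX795, a log2 change of 0.59 (limma adjusted p = 0.337 over all 12 libraries and 0.00133 in the 6 alone). It had 8.37, 15.6 and 7.88 FPKM with pEGFP-N1 and 7.48, 14.8 and 13.8 FPKM with both. So Il10rb was the gene of the 4 with the largest change with BX795, Ifnar1 the one with the smallest, 0.17. The remaining genes lie elsewhere: Socs1 also on chromosome 16 but far from the cluster (10782240 to 10785536), Jak1 on chromosome 4 (101152367 to 101265282, tagged as overlapping another locus), Ifngr1 on chromosome 10 (19591949 to 19610229), Socs3 on chromosome 11 (117966079 to 117970047), Tyk2 on chromosome 9 (21104068 to 21131243) and Jak2 on chromosome 19 (29251828 to 29313080).

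Of the 10 genes, Socs1 alone spanned at least 1 on the log2(FPKM + 1) scale over the 12 libraries, 1.38. Socs3 spanned 0.955, Tyk2 0.686 and Ifngr2 0.57, and Ifngr1 least of those above the filter, 0.307. The 3 genes with the profile most like that of Socs1, by the mean absolute difference of centred log2 values over the 12 libraries, were Metrnl (0.1), Nectin2 (0.123) and Inka1 (0.125). Metrnl, a secreted protein, had 9.64, 7.48 and 9.01 FPKM with pEGFP-N1 and 10.4, 6.07 and 3.94 FPKM with both treatments, and like Socs1 was lowest in BX795 plus pEGFP-N1 replicate 3. Nectin2, an adhesion molecule, was highest in BX795 plus pEGFP-N1 replicate 1 (48.3 FPKM) and lowest in replicate 3 (23.7 FPKM). Inka1 had 10.9 and 4.61 FPKM in the same 2 libraries.

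Other genes of the pathway were taken from lists by role, chosen like the 10 with earlier results of these data known. In the fit of all 12 libraries none of them was called in any of the comparisons. The 8 interferon response markers are the genes whose sum set the 2 doubted libraries apart, so their calls without those libraries are no test. Without these libraries, and so as a description, 8 of 8 were called higher for pEGFP-N1 against mock (median log2 change 5.03). For BX795 plus pEGFP-N1 against pEGFP-N1, 8 of 8 were called lower (median log2 change -4.51). For the same pair of comparisons, in which 3.76% and 18.1% of all tested genes were called in either direction, 1 higher and 1 lower, then 1 higher and 2 lower, of 12 receptor chains were called. Of 6 other SOCS genes 1 was called higher and 1 lower, then 0 and 2, and of 12 other negative regulators 1 and 0, then 1 and 3. With lists this small, nothing particular to them is read from these counts beside the shares over all genes. In the 6 mock and BX795 libraries alone, where 12.7% of tested genes were called higher and 7.97% lower, the calls were 2 higher and 2 lower of 12 tested receptor chains and 0 higher and 2 lower of 6 other SOCS genes. Of 12 tested negative regulators other than SOCS, 0 were called higher and 2 lower, and of the 8 interferon response markers none in either direction. Of these 8, Cxcl10 was above every mock library in all BX795 libraries (0.9 to 7.86 against 0.31 to 0.47 FPKM), and Usp18 below. In the fit without the 2 doubted libraries 1 of the 8 was called higher with BX795, where 14.1% of tested genes were called in either direction. The median log2 change with BX795 was 0.159 in the receptor chains, -0.129 in the other SOCS genes and -0.00755 in the other negative regulators, beside 0.0284 over all tested genes.

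Among the receptor chains, Il4ra, the interleukin 4 receptor, had 20.4, 19.1 and 17.9 FPKM without and 9.30, 9.77 and 10.04 FPKM with BX795, a log2 change of -0.91 (limma adjusted p = 0.111 over 12 libraries and 7.10e-05 in the 6 alone). Osmr, the oncostatin M receptor, had 27.9, 26.4 and 26.7 FPKM in the mock libraries and 15.5, 17.6 and 17.1 FPKM in the BX795 libraries, a change of -0.66 (limma adjusted p = 0.0823 and 0.000172). Both were lower in every BX795 library than in any mock library, while 9 of the 12 receptor chains in this list had a log2 change above 0, and the 2 called higher in the 6 libraries alone were Il10rb and Il6st. With pEGFP-N1 replicates 1 and 3, Osmr was at 21.1 FPKM in each and Il4ra at 15.0 and 15.3 FPKM, between mock and BX795.

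Among the negative regulators, Sh2b3, an adaptor that restrains JAK2 signaling, split the libraries as Socs3 did. It had 64.8, 64.3 and 62.4 FPKM in the mock libraries and 35.6, 31.9 and 32.4 FPKM in the BX795 libraries. With plasmid it had 57.9, 33.6 and 58.7 FPKM, and with both treatments 59.3, 33.4 and 36.5 FPKM. Its log2 change with BX795 was -0.92 (limma adjusted p = 0.164 over 12 libraries and 4.57e-05 in the 6 alone). Ptpn11, a phosphatase, lay between 46.7 and 53.1 FPKM in all 12 libraries. Of the other SOCS genes, Socs5 had 25.5, 24.4 and 24.5 FPKM without and 17.0, 19.3 and 19.5 FPKM with BX795, a change of -0.40 (limma adjusted p = 0.0755 and 0.00274). Socs5 was also below every mock library in all 3 pEGFP-N1 libraries (19.01 to 19.87 FPKM) and all 3 with both treatments (16.45 to 18.21 FPKM), and did not set the 2 doubted libraries apart. Socs2 had 6.13, 5.24 and 4.82 FPKM in the mock libraries and 4.10, 3.32 and 4.10 FPKM in the BX795 libraries. With plasmid it had 7.71, 3.63 and 7.82 FPKM and with both treatments 8.09, 3.75 and 4.30 FPKM, so that it was highest in the same 3 libraries as Socs1. Socs6 lay between 7.56 and 9.53 FPKM in the 12 libraries.

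The transcription factors downstream of the receptors split by library. Stat2 had 21.1 and 20.6 FPKM in pEGFP-N1 replicates 1 and 3 and 19.5 FPKM in BX795 plus pEGFP-N1 replicate 1, and between 5.12 and 8.05 FPKM in the other 9 libraries. Irf9, its DNA-binding partner, had 7.85, 7.63 and 7.42 FPKM in the same 3 libraries and between 2.55 and 3.90 FPKM in the other 9. Usp18, an interferon-induced inhibitor that binds IFNAR2, had 3.93, 3.61 and 3.47 FPKM there and at most 0.62 FPKM elsewhere. The 3 libraries in which these genes were high are also the 3 with the most Socs1. By label the log2 change of Stat2 with pEGFP-N1 was 1.25 (SE 0.398, limma adjusted p = 0.699). With the 2 doubted libraries left out it was 1.75 for Stat2 (SE 0.0854), 0.90 for Irf9 (SE 0.091) and 1.63 for Usp18 (SE 0.102). These values describe the libraries kept, and Usp18 is itself among the 8 markers that set the 2 libraries apart. Stat3 had 24.7, 25.4 and 23.9 FPKM without and 20.1, 20.5 and 18.9 FPKM with BX795, a change of -0.30 (limma adjusted p = 0.219 over 12 libraries and 0.00427 in the 6 alone). Stat6 lay between 25.5 and 32.0 FPKM in the 12 libraries.

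**Figure D4:**
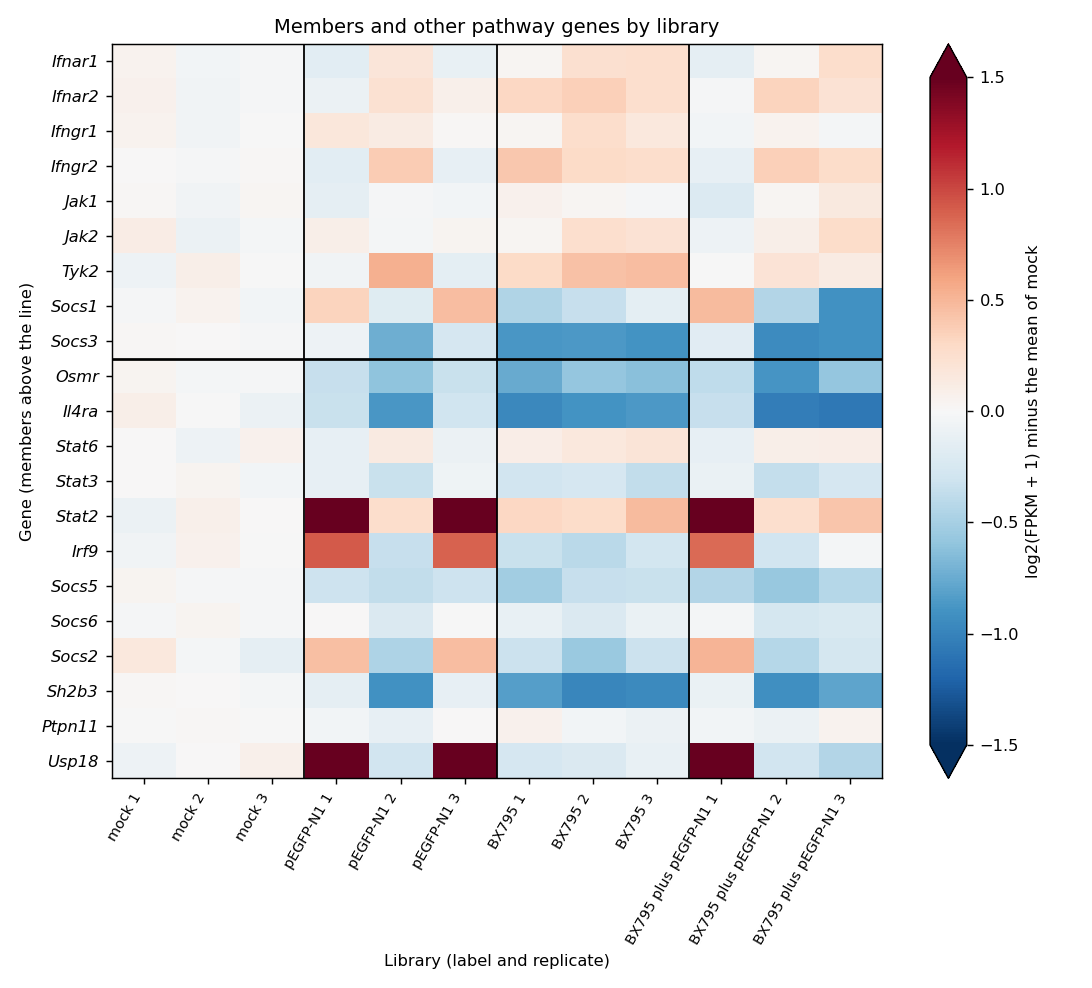
Difference of log2(FPKM + 1) from the mock mean (color, from -1.5 to 1.5, beyond which it is capped) for the 9 genes above the filter and, under the line, 12 other named genes of the pathway (vertical axis) in each of 12 libraries (horizontal axis). Within their own rows, Socs3 and Sh2b3 are deepest blue with BX795, with pEGFP-N1 replicate 2 and with BX795 plus pEGFP-N1 replicates 2 and 3. Il4ra and Osmr are below the mock mean in all 9 treated libraries, less so in pEGFP-N1 replicates 1 and 3 and BX795 plus pEGFP-N1 replicate 1, the 3 libraries in which Stat2, Irf9 and Usp18 are deepest red.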

How the data were processed

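Total RNA of L929 cells was profiled in 12 libraries on a BGISEQ-500. Per the labels and the study's methods, the authors aligned reads with Bowtie2 2.2.5 (up to 200 alignments per read) and estimated expression with RSEM 1.2.12, and the submitters' processing notes name GRCm38.p5; the annotation is not given in the sources used here. The values the authors deposited are FPKM with 2 decimals for 17571 Entrez identifiers, of which 17450 had a RefSeq symbol and 121 did not. Since 26.8% of 1321 low values lay within 0.1 of a whole multiple of a gene's smallest value, whole reads were not recovered and no count test was run.

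Here log2(FPKM + 1) was tested with limma 3.58.1 (R 4.3.3; 4 group means, empirical Bayes with trend, Benjamini-Hochberg over 10412 genes reaching 1 FPKM in 3 libraries or more, call at an adjusted p under 0.05), tested first on simulated data. Ifnb1, below the filter, was compared by exact permutation tests (scipy 1.17.1). Python 3.11.15, numpy 2.4.6, pandas 2.3.3 and matplotlib 3.10.9 were also used. Coordinates are from GENCODE on GRCm38, sequences from RefSeq on GRCm38.p6, found for all 10 genes.

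The 10 genes and all lists were chosen with earlier results of these data known. Named besides the 10 are, per pathway list, the 2 tested genes highest in mock and the 2 with the largest log2 change between pEGFP-N1 and mock, the 8 interferon response markers, and the 3 nearest profiles of a gene spanning at least 1 on the log2 scale. Il10rb and the genes named only as parts of a count were named after their values were seen. Alternatives were a pseudocount of 0.1, no filter, a minimum mean of 5 FPKM, TPM scaling, quantile normalization and no trend. Others were a block for the replicate number, leaving out each library in turn, and the study's thresholds applied to limma (false discovery rate of 0.001, log2 change of 2). Leaving out both doubted libraries, and fitting mock and BX795 alone, were added after seeing the data. The count and median of the list of STAT genes are not reported here.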

Additional observations from a re-analysis of the deposited data

How the results depend on the processing

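With the libraries taken by label, calls depended on which libraries entered the fit. Depth is unknown and limits what low genes such as Ifnb1 can show. Of the values of single genes under the alternatives, 724 kept their direction and their side of the threshold, 16 passed it and 29 turned their direction; of the counts and the Ifnb1 differences, 310 stayed, 75 moved and 1 turned (Ifnb1, BX795 plus pEGFP-N1 against BX795, without BX795 replicate 3). The cause of a change was not tested.

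Both doubted libraries left out, a choice made after the data were seen, gave 391 called genes for pEGFP-N1 against mock and 1466 for BX795 against mock, from 7 each, and 1886 for BX795 plus pEGFP-N1 against pEGFP-N1, 132 for the difference of the plasmid effects, 452 for the mean plasmid effect and 3522 for the mean BX795 effect, from 0 each. Of the 9 genes above the filter, 4, 4 and 6 were then called for BX795 against mock, BX795 plus pEGFP-N1 against pEGFP-N1 and the mean BX795 effect. Of the 10 genes, Ifnb1 included, 5 no longer overlapped for pEGFP-N1 against mock (from 1), beside 51.6% of tested genes. For BX795 plus pEGFP-N1 it was 2 against BX795 (from 1), beside 17.7%, and 9 against pEGFP-N1 (from 0), beside 57.4%. Ifnb1, which is below the filter these shares use, was counted on 0.08 against 0 FPKM. Log2 changes that turned were, for pEGFP-N1 against mock, Ifnar2 (-0.0014), Ifngr2 (-0.1418) and Tyk2 (-0.0992), for BX795 plus pEGFP-N1 against BX795, Jak1 (0.0635), Jak2 (0.0161), Socs1 (-0.3584) and Socs3 (-0.0459), and, against pEGFP-N1, Tyk2 (0.2629). Mock and BX795 libraries alone gave 2150 called genes, 5 of the 9 among them.

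Without a filter, 2 genes were called for pEGFP-N1 against mock, 1 for BX795 plus pEGFP-N1 against BX795, 2 against pEGFP-N1, and 1 each for the difference of the plasmid effects, the mean plasmid effect and the mean BX795 effect. The mean plasmid effect gave 3 calls with a minimum mean of 5 FPKM, 3 with TPM scaling and 1 with quantile normalization, and the mean BX795 effect 3 without the trend. The study set its thresholds for a Poisson-based test, while here they were applied to limma on log2(FPKM + 1), so the counts are not the study's own. By label they gave 0 calls for pEGFP-N1 and for BX795 against mock. With both doubted libraries left out they gave 26 for pEGFP-N1 against mock, 0 for BX795 against mock, 24 for BX795 plus pEGFP-N1 against pEGFP-N1 and 25 for the difference of the plasmid effects. With quantile normalization 2 of the 10 genes did not overlap for pEGFP-N1 against mock, where 491 of 10412 tested genes were above and 953 below. For BX795 plus pEGFP-N1 against pEGFP-N1 it was 1 of the 10, where 166 tested genes were above and 158 below. TPM scaling turned Jak1 (0.0005) for BX795 plus pEGFP-N1 against BX795 and Tyk2 (0.0268) against pEGFP-N1, and a pseudocount of 0.1 put that Tyk2 change at 0.0000.

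Same-numbered libraries of different groups deviated together (correlation over 0.1) in 6 of 18 pairs, with a range from -0.389 to 0.635. In every pair of groups the mean correlation was higher for same than for other numbers. It ran from 0.019 against -0.00951 (mock and both treatments) to 0.353 against -0.204 (pEGFP-N1 and both treatments). The 2 doubted libraries are part of these values, so pairing was not settled. The numbers were not taken to pair libraries. With the replicate number as a block, 5 genes were called for pEGFP-N1 against mock, 7 for BX795 against mock and 1 for the mean BX795 effect, and none of the 9 genes in any comparison.

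With each library left out in turn, genes called ranged from 0 to 17 for pEGFP-N1 against mock, from 0 to 149 for BX795 against mock, from 0 to 1 for the difference of the plasmid effects, from 0 to 362 for the mean plasmid effect (362 without pEGFP-N1 replicate 2) and from 0 to 821 for the mean BX795 effect (821 without pEGFP-N1 replicate 2, 406 without BX795 plus pEGFP-N1 replicate 1). Of the 9 genes, 0 to 2 were called for BX795 against mock (2 without pEGFP-N1 replicate 2) and 0 to 4 for the mean BX795 effect. Of the 10 genes, Ifnb1 included, the number without overlap ran from 1 to 5 for pEGFP-N1 and from 5 to 8 for BX795 against mock. For both treatments it ran from 1 to 3 against BX795 and from 0 to 4 against pEGFP-N1. The highest counts came where 1 compared group held 2 libraries, which raised the background too. Of 10412 tested genes, 2191 then lay above and 3182 below for the 5 (without pEGFP-N1 replicate 2). For the 8 it was 3874 and 2711 without BX795 replicate 1, and 2814 and 1962 without mock replicate 1. For the 3 it was 1241 and 1889, and for the 4 it was 1103 and 893. Ranges that crossed 0 were, for pEGFP-N1 against mock, Ifnar1 (-0.1338 to 0.0327), Ifnar2 (-0.0014 to 0.1533), Ifngr2 (-0.1418 to 0.1303), Jak2 (-0.0139 to 0.0884) and Tyk2 (-0.0992 to 0.2438), and for BX795 against mock Jak1 (-0.0042 to 0.0467). For both treatments against BX795 they were Jak1 (-0.1082 to 0.0635), Jak2 (-0.1631 to 0.0161), Socs1 (-0.3584 to 0.3318), Socs3 (-0.0459 to 0.3424) and Ifnb1 (-0.0533 to 0.0267 FPKM). Against pEGFP-N1 they were Ifnar1 (-0.0211 to 0.1871), Jak1 (-0.0223 to 0.1494), Jak2 (-0.0261 to 0.1531) and Tyk2 (-0.1354 to 0.2076), and for the difference of the plasmid effects Socs1 (-0.5598 to 0.1304).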
